A study of Mus musculus with 18 samples.

Results

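The genes described here are 33 genes of astrocytes, chosen as a list of names: 28 genes of resting astrocyte identity and 5 genes grouped here as reactivity genes. All 33 are among the 23420 gene symbols of the deposited count table. The rule that lists them uses no measured value, but the list was chosen with earlier results of these data known. RNA was sequenced from the brain of mice of the genotype Camk2a-Cre-Rpl22HA, which all groups share and in which the ribosomal protein Rpl22 carries an HA tag in cells with Camk2a-driven Cre, mainly forebrain excitatory neurons. The groups were control mice without tumor, mice with glioma cells implanted in the cortex (tumor), and tumor mice given AZD8055, an inhibitor of the kinase mTOR (AZD). From each came total RNA (input) and polysomal RNA pulled down through the HA tag (IP), with 3 libraries in each of the 6 groups, 18 in all. The dose and duration of AZD8055, the glioma line, and the age and sex of the mice were not stated in the labels read here. Astrocytes are not the cells the tag was made to mark.

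Astrocytes are the glial cells that take up glutamate and potassium, carry water and ions between blood vessels and neurons, and are joined into networks by gap junctions of connexin proteins. After injury, inflammation or tumor growth they become reactive: they enlarge, build intermediate filaments of glial fibrillary acidic protein and vimentin, and alter their secreted and membrane proteins. Around gliomas, reactive astrocytes form a border at the edge of the tumor. Several of the genes below are also used by neighbouring cells: vimentin by dividing progenitors, vessels and glioma cells, apolipoprotein E by microglia, and S100b by oligodendrocyte precursors.

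Library totals lay between 13561511 and 34178417 counts, and levels are given as CPM, the counts of a gene scaled to a common library total, after TMM scaling, a correction for the composition of each library. The labels do not say whether each replicate number is a mouse of its own, so the p-values reflect how much these libraries vary, some of which may be technical. Library names fall into 3 sets: control and tumor input, control and tumor IP, and all AZD libraries. Comparing tumor with control in 1 fraction, or the 2 fractions of AZD mice, stays inside a set; in the other comparisons the set changes with the group, and their effects cannot be told apart. Where the IP-over-input change is compared between tumor and control mice, the change of set is common to both. Tumor replicate 1 stood apart from the other 2 tumor replicates in both fractions. In tumor input it had the highest level of 5 of the 5 reactivity genes and the lowest level of 8 of 8 oligodendrocyte markers, 8 of 8 inhibitory-neuron markers and 7 of 8 excitatory-neuron markers. Without it, 22 of the 33 genes were called between tumor and control input (24 with it) and 20 between tumor and control IP (21 with it); the genes that depend on it are named below. In bulk RNA, fewer astrocytes and less of a transcript per astrocyte cannot be told apart.

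The summed level of the 33 genes was lowest in AZD IP. It lay between 4689 and 4915 CPM in control input, 4711 and 5824 CPM in tumor input, 4831 and 4958 CPM in AZD input, 4452 and 5019 CPM in control IP, and 4567 and 4869 CPM in tumor IP. In AZD IP it lay between 1242 and 1456 CPM, below every other library. Inside the sum, the tumor moved the genes in both directions. The map of all 33 genes shows this as red rows of Gfap, Vim and S100b below a mostly blue field of channels, receptors and enzymes. The reactivity genes Serpina3n and Lcn2 were not red in every tumor library.

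**Figure D1:**
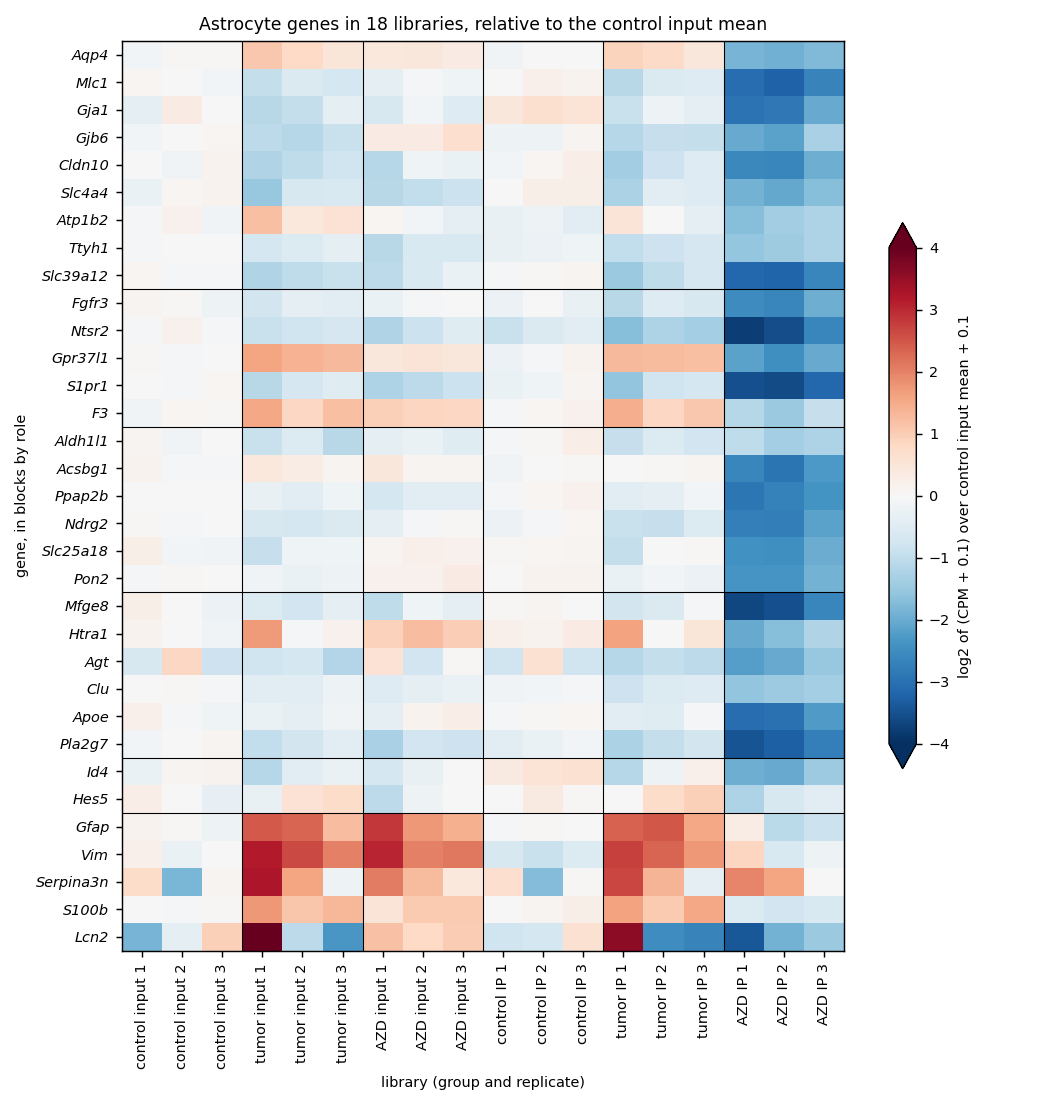
Level of each of the 33 astrocyte genes (rows, in blocks by role) in each of the 18 libraries (columns), as the log2 ratio of CPM + 0.1 to the control input mean + 0.1; red is higher and blue lower. The 3 AZD IP columns are blue for most rows. Of the reactivity genes at the bottom, all 5 are above the control input mean in AZD input, and Gfap, Vim and S100b in every tumor column. Serpina3n in tumor replicate 3 and Lcn2 in tumor replicates 2 and 3 lie below that mean in both fractions.

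The first comparison asked how the tumor changed astrocyte genes in whole tissue. A gene is called changed where its Benjamini-Hochberg adjusted p, taken over all genes tested in edgeR's quasi-likelihood test, is under 0.05. In tumor input against control input, 8 of the 33 genes were higher and 16 lower. Among all 15511 genes tested, 24.5% were called higher and 23.6% lower. The median log2 fold change of the 33 genes was -0.40, against -0.014 over all genes tested. The share of lower calls (16 of 33) was above that background and the share of higher calls (8 of 33) close to it.

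The reactivity genes held the largest called rises. Gfap, which encodes the main astrocyte intermediate filament (chr11:102887336-102897200 in RefSeq, GRCm38.p6), stood at 98.5, 91.0 and 76.6 CPM in control input against 485, 443 and 210.2 CPM in tumor input. Vim, encoding the filament protein vimentin (chr2:13574311-13582826), stood at 44.1, 32.0 and 38.8 CPM in control input against 343, 238 and 155 CPM in tumor input. For both genes every tumor library lay above every control library. The log2 fold change was 2.09 ± 0.38 (SE; adjusted p = 0.00175) for Gfap, a 4.25-fold rise, and 2.67 ± 0.34 (adjusted p = 0.000177) for Vim, a 6.37-fold rise. S100b, a calcium-binding protein, went from 101 ± 3.52 CPM (SD, n = 3) to 268 ± 60.9 CPM (SD, n = 3), with a log2 fold change of 1.40 ± 0.18 (adjusted p = 0.000191) and no overlap between the groups.

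The other 2 reactivity genes depended on single libraries. Serpina3n, a secreted inhibitor of serine proteases, stood at 84.2, 14.2 and 54.7 CPM in control input against 478, 153 and 44.0 CPM in tumor input. The groups overlapped: tumor replicate 3 lay below 2 control libraries. Its log2 fold change of 2.14 ± 0.80 (adjusted p = 0.0468) became 0.94 (adjusted p = 0.258) without tumor replicate 1, and was also lost without tumor replicate 2 or any of the 3 control libraries. Lcn2, which encodes the iron-siderophore carrier lipocalin 2, stood at 0.191, 0.722 and 1.97 CPM in control input against 20.1, 0.414 and 0.109 CPM in tumor input. The level was high only in tumor replicate 1, and the log2 fold change of 2.85 ± 1.35 did not pass (adjusted p = 0.102).

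Promoter sequences are shown for 5 genes whose levels moved with the tumor: the filament pair Gfap and Vim, the receptor gene F3, which rose, and the astrocyte connexin pair Gjb6 and Gja1, which fell. These 5 were picked after their values were seen. Each line is the 250 bases before the start of the gene in RefSeq (build GRCm38.p6), 5' to 3' on the strand of the gene, with motif matches in capitals. Both strands were searched for 4 motifs, and no match of a motif overlaps that of another in the 5 windows. The palindrome bound by STAT factors was spelled TTCNNNGAA, and the site of AP-1 was spelled TGANTCA. The TATA box was TATAAA. The GC box was GGGCGG, which appears as its reverse complement where it lies on the other strand.
Gfap (chr11:102897201-102897450, minus strand): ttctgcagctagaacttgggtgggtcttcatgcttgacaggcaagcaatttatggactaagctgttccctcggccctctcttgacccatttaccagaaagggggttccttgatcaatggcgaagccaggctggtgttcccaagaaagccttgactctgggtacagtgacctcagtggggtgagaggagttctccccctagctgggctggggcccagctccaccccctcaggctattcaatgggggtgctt
Vim (chr2:13574061-13574310, plus strand): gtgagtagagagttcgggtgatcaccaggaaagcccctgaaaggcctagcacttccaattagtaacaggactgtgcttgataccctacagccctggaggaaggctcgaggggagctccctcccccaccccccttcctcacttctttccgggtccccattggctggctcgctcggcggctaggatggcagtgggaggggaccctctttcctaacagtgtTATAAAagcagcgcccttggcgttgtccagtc
F3 (chr3:121723287-121723536, plus strand): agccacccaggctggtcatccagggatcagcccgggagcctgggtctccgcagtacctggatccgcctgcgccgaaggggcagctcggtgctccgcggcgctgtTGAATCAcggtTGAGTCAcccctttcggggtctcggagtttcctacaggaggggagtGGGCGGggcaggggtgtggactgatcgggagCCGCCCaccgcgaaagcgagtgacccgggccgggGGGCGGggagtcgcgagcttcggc
Gjb6 (chr14:57133612-57133861, minus strand): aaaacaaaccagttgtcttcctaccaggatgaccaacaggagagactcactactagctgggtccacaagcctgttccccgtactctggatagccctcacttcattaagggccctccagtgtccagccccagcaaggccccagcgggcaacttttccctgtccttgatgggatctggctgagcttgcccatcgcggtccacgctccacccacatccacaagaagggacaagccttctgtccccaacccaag
Gja1 (chr10:56377050-56377299, plus strand): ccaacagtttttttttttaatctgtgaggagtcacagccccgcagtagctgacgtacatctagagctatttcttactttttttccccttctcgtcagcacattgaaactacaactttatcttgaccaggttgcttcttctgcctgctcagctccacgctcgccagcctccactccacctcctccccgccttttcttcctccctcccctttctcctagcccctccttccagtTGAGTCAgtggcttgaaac
The Vim window holds a TATA box whose first base is at -32 from the start, and the Gfap and Gjb6 windows hold none of the 4 motifs. The F3 window holds AP-1 matches at -146 and -135 and 3 GC boxes, and the Gja1 window an AP-1 match at -19. A promoter entry was found for 29 of the 33 genes, with 36 windows in all because some genes have more than 1. A gene counts as matched if any of its windows matches. The background is the percent of single windows, so the 2 measures are not alike. AP-1 was matched in 2 of these 29 genes and in 6.7% of all 32851 windows, and the STAT palindrome in 4 genes (Acsbg1, Agt, Ntsr2 and Pla2g7) and in 7.0% of windows. The TATA box was matched in 6 genes and 12.4% of windows, and the GC box in 13 genes and 32.7% of windows. These matches describe the letters only: the connexin pair that fell together does not share a motif here, and neither does the filament pair that rose together.

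Among 9 channel, junction and transport genes, 7 were lower in tumor input and 2 higher. The gap-junction genes fell: Gjb6 (connexin 30) stood at 41.0, 44.9 and 46.3 CPM in control input against 21.5, 19.7 and 23.9 CPM in tumor input, a log2 fold change of -1.03 ± 0.13 (adjusted p = 0.000144). Gja1 (connexin 43) stood at 88.0, 143 and 112 CPM in control and 53.5, 58.8 and 89.3 CPM in tumor input, with a log2 fold change of -0.79 ± 0.22 (adjusted p = 0.0143). Every Gjb6 tumor library lay below every control library, whereas Gja1 in tumor replicate 3 lay just above control replicate 1, and without control replicate 2 the Gja1 call was lost (log2 fold change -0.59, adjusted p = 0.0685). Mlc1, a membrane protein of astrocyte junctions around vessels, went from 133, 127 and 115 CPM to 65.3, 84.2 and 76.9 CPM (log2 fold change -0.74 ± 0.12, adjusted p = 0.00104). Slc39a12, a zinc transporter, went from 61.4, 57.0 and 56.3 CPM to 25.4, 28.8 and 31.5 CPM (log2 fold change -1.04 ± 0.17, adjusted p = 0.000868). In both genes every tumor library lay below every control library. The tight-junction gene Cldn10 (-1.02 ± 0.23, adjusted p = 0.00453), the bicarbonate cotransporter gene Slc4a4 (-0.88 ± 0.21, adjusted p = 0.00631) and the membrane protein gene Ttyh1 (-0.56 ± 0.14, adjusted p = 0.00818) fell as well.

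Aqp4 and Atp1b2 went the other way. Aqp4, the water channel of astrocyte endfeet, stood at 157, 176 and 175 CPM in control input against 359.6, 293 and 238 CPM in tumor input, a log2 fold change of 0.80 ± 0.14 (adjusted p = 0.00161). Atp1b2, a beta subunit of the sodium-potassium pump, stood at 154, 183 and 146 CPM in control and 371, 215 and 240.5 CPM in tumor input, a log2 fold change of 0.77 ± 0.20 (adjusted p = 0.0105). Aqp4 and the connexins are all proteins of astrocyte contacts, and here they moved in opposite directions in the same 3 libraries.

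The 5 receptor genes split as well. Gpr37l1, a G-protein-coupled receptor gene of astrocytes (chr1:135160250-135167681), had the smallest adjusted p of the 33 genes in this comparison. It stood at 128, 122 and 126 CPM in control input against 378, 331 and 308 CPM in tumor input, a 2.69-fold rise (log2 fold change 1.43 ± 0.10, adjusted p = 5.85e-06). F3, which encodes tissue factor, the receptor that starts blood clotting, stood at 25.9, 30.2 and 29.9 CPM in control and 84.8, 50.5 and 66.2 CPM in tumor input, a log2 fold change of 1.22 ± 0.17 (adjusted p = 0.00031). The groups did not overlap for either gene. The other 3 fell: the neurotensin receptor gene Ntsr2 (-0.81 ± 0.17, adjusted p = 0.00305), the sphingosine-1-phosphate receptor gene S1pr1 (-0.75 ± 0.15, adjusted p = 0.00235) and the growth factor receptor gene Fgfr3 (-0.51 ± 0.13, adjusted p = 0.00886).

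Of 6 enzyme and metabolism genes, 3 were lower and none higher. Aldh1l1, the folate enzyme widely used as an astrocyte marker, stood at 69.0, 57.8 and 64.0 CPM in control input against 34.0, 44.0 and 29.4 CPM in tumor input (log2 fold change -0.84 ± 0.15, adjusted p = 0.00136). Ndrg2, a gene widely used to label astrocytes, went from 571 ± 20.4 CPM to 366 ± 17.4 CPM (SD, n = 3 each; log2 fold change -0.65 ± 0.12, adjusted p = 0.00173). For both genes the groups did not overlap. Ppap2b, a lipid phosphatase gene that RefSeq now names Plpp3, fell by 0.31 ± 0.11 on the log2 scale (adjusted p = 0.0354), a call lost without tumor replicate 2 or any of the 3 control libraries, with plain library totals and without a filter. Acsbg1, an acyl-CoA synthetase gene (0.27 ± 0.13), Slc25a18, a mitochondrial glutamate carrier gene (-0.40 ± 0.19), and Pon2, a paraoxonase gene (-0.21 ± 0.10), did not pass.

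Of 6 genes of secreted proteins, 3 were lower and none higher. Pla2g7, a secreted phospholipase gene, had a log2 fold change of -0.71 ± 0.16 (adjusted p = 0.0053), Mfge8, which helps phagocytes bind dying cells, -0.57 ± 0.20 (adjusted p = 0.0345), and Clu, the chaperone clusterin, -0.37 ± 0.11 (adjusted p = 0.0187). The call of Clu was lost without tumor replicate 2, control replicate 1 or control replicate 2, and that of Mfge8 also without tumor replicate 1 (adjusted p = 0.0519). Apoe, the lipid carrier, did not pass (-0.26 ± 0.17). Htra1, a secreted serine protease gene, stood at 125, 112 and 102 CPM in control input against 370.4, 107 and 127 CPM in tumor input: only tumor replicate 1 was far above the controls, and the log2 fold change of 0.83 ± 0.38 did not pass (adjusted p = 0.091). Agt, the angiotensin precursor, was uneven in controls (5.87, 16.4 and 5.04 CPM), where replicate 2 was high in both fractions, and did not pass (-0.90 ± 0.45). Neither transcription regulator passed: Id4, an inhibitor of helix-loop-helix factors, had a log2 fold change of -0.58 ± 0.23 and Hes5, a repressor switched on by Notch, 0.39 ± 0.31. Id4 was called lower by DESeq2 (adjusted p = 0.0377) and by edgeR with the replicate number as a block (-0.61, adjusted p = 0.0022). The edgeR fits with a mean of at least 5 CPM, without a filter and without tumor input replicate 3 also called it lower.

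**Figure D2:**
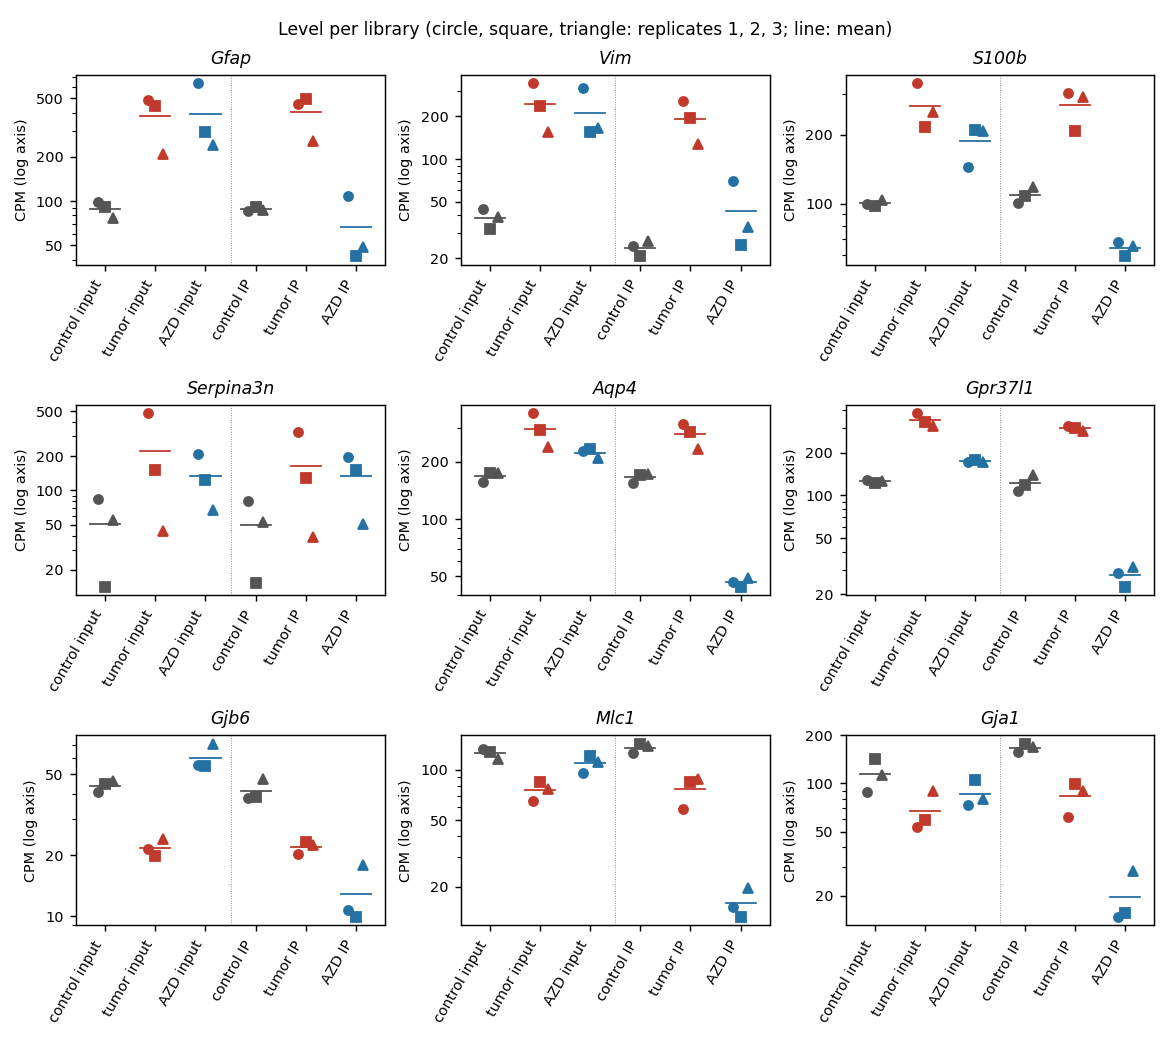
Level in CPM (log axis) of 9 of the genes in each library, by group; circles, squares and triangles are replicates 1, 2 and 3, and lines are group means. Gfap, Vim, S100b, Aqp4 and Gpr37l1 lie higher in tumor input than in control input, Gjb6 and Mlc1 lower, and of the 9 only Serpina3n was not called lower in AZD IP than in AZD input.

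Markers of other cells moved in the same comparison. The 8 markers of the oligodendrocyte-precursor lineage, which many gliomas also express, summed to 538 to 609.7 CPM in control input and 5994 to 6762 CPM in tumor input, and 8 of 8 were higher. The 8 markers of dividing cells summed to 13.0 to 22.8 CPM and 608 to 694 CPM, with 8 of 8 higher. Excitatory-neuron markers summed to 2962 to 3207 CPM in control and 1004 to 1878 CPM in tumor input (8 of 8 lower), and oligodendrocyte markers to 2958 to 3270 CPM and 1027 to 2048 CPM (7 of 8 lower). Microglia markers summed to 267 to 298 CPM and 204 to 264 CPM (1 of 8 lower, none higher), endothelial markers to 316 to 343 CPM and 191 to 251 CPM (2 of 8 lower). No marker of these lists was at 0 in any whole group. The part of these cells in the astrocyte gene changes was not tested.

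The same question was put to the IP. Tumor IP had 6 of 33 genes higher and 15 lower than control IP, against a background of 26.1% of genes called higher and 20.9% lower. The median log2 fold change was -0.45. Gfap stood at 85.5, 91.5 and 87.2 CPM in control IP and 457, 492 and 257 CPM in tumor IP (log2 fold change 2.22 ± 0.34, adjusted p = 0.000465). Vim stood at 24.4, 20.6 and 26.2 CPM in control IP and 255, 194 and 128 CPM in tumor IP (log2 fold change 3.04 ± 0.36, adjusted p = 8.54e-05). S100b (1.32 ± 0.14), Gpr37l1 (1.31 ± 0.13), F3 (1.11 ± 0.18) and Aqp4 (0.78 ± 0.12) made up the other higher calls, with adjusted p between 1.97e-05 and 0.000596. Among the lower calls were Slc39a12 (-1.04 ± 0.19), Gja1 (-0.97 ± 0.23), Cldn10 (-0.92 ± 0.23) and Gjb6 (-0.89 ± 0.19). Id4, encoding the helix-loop-helix inhibitor, was called lower in the IP (-0.75 ± 0.27, adjusted p = 0.0395). In input its log2 fold change was also negative, and it was called lower in some alternative fits only. Serpina3n, Lcn2, Atp1b2, Mfge8 and Ppap2b were among the 12 genes that did not pass. The calls of Id4, Fgfr3 and Ntsr2 were lost without tumor IP replicate 1 (adjusted p = 0.0539, 0.0993 and 0.057) and without control IP replicate 2 or 3. Those of Id4 and Fgfr3 were also lost without control IP replicate 1 (adjusted p = 0.0595 and 0.0624) and with plain library totals (adjusted p = 0.0504 and 0.0637). That of Id4 was lost without tumor IP replicate 2 as well (adjusted p = 0.0747), and that of Pla2g7 without control IP replicate 3 (adjusted p = 0.0513). Of the markers of other cells, 0 of 8 microglia and 0 of 8 endothelial markers were called in the IP, and the other lists moved as in input. Glioma-lineage markers summed to 410.3 to 544 CPM in control IP and 4795 to 5209 CPM in tumor IP (8 of 8 higher). Excitatory-neuron markers summed to 3626 to 4368 CPM and 1657 to 2148 CPM (7 of 8 lower). Of the dividing-cell markers 8 of 8 were higher, and of the oligodendrocyte markers 6 of 8 were lower. Their part in the result was not tested.

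The difference between the tumor change in IP and in input was tested directly. Of the 33 genes, 0 differed, against 0.0687% of 16016 genes in this edgeR contrast; 0 of the 33 reached an unadjusted p under 0.05, and DESeq2 also called 0. On the log2 scale the contrasts ran from -0.63 ± 2.13 for Lcn2 and -0.42 ± 1.20 for Serpina3n to 0.34 ± 0.52 for Vim. The smallest standard error was that of Clu (-0.15 ± 0.15). The fit had no replicate block, so these errors include spread that input and IP of the same number share. With the replicate number as a block, edgeR called 0 of the 33 genes and 67 genes overall. The log2 ratios of same-numbered libraries averaged -0.68 ± 0.15 in control and -0.33 ± 0.08 in tumor for Vim (SD of 3 pairs). For Serpina3n they averaged 0.01 ± 0.09 and -0.31 ± 0.20.

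In whole tissue, 25 of the 33 genes were not called between AZD-treated and untreated tumor. AZD input had 6 of 33 genes higher and 2 lower than tumor input, where 7.89% of all genes were called higher and 9.17% lower. The median log2 fold change was 0.007. The count of 8 fell to 4 without AZD input replicate 2 and to 3 without AZD input replicate 3. The calls of Gjb6 and Gpr37l1 were kept when any library was left out, and each of the other 6 was lost without AZD input replicate 2 or 3, with adjusted p of 0.0524 (Ndrg2) to 0.162 (Fgfr3). Those of Fgfr3 and Aldh1l1 were also lost without tumor input replicate 1 or 3. The Fgfr3 call was lost with RLE size factors, without a filter and with all 18 libraries in 1 fit as well, and the Aldh1l1 call with plain library totals. The largest rise was that of Gjb6: connexin 30 stood at 21.5, 19.7 and 23.9 CPM in tumor input and 55.4, 55.0 and 71.0 CPM in AZD input, a 2.85-fold rise (log2 fold change 1.51 ± 0.13, adjusted p = 5.87e-05). All 3 AZD input libraries also lay above the 3 control input libraries, with a log2 fold change over control of 0.47 ± 0.12 (adjusted p = 0.014). Mlc1 (0.57 ± 0.12, adjusted p = 0.0119), Ndrg2 (0.55 ± 0.12, adjusted p = 0.0113), Pon2 (0.45 ± 0.10, adjusted p = 0.0127), Aldh1l1 (0.49 ± 0.15, adjusted p = 0.0431) and Fgfr3 (0.42 ± 0.13, adjusted p = 0.0475) rose by less. Gpr37l1 fell: it stood at 378, 331 and 308 CPM in tumor input and 172, 178 and 170.5 CPM in AZD input (log2 fold change -0.94 ± 0.10, adjusted p = 0.000358), still above control (0.49 ± 0.10, adjusted p = 0.0049). The pump subunit gene Atp1b2 fell too (-0.87 ± 0.20, adjusted p = 0.0166), to 169.8, 149.9 and 124 CPM, a level not called different from control (-0.10 ± 0.20, adjusted p = 0.714).

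None of the 5 reactivity genes passed between AZD input and tumor input in the edgeR fit of the 9 input libraries, where S100b had an unadjusted p under 0.05. S100b was called lower by DESeq2 (adjusted p = 0.0419), by edgeR with all 18 libraries (adjusted p = 0.0368) and by edgeR without tumor input replicate 2 (adjusted p = 0.0429). Gfap stood at 634, 298 and 240.2 CPM in AZD input, with replicate 1 the highest of all 9 input libraries, and a log2 fold change over tumor of 0.072 ± 0.37 (adjusted p = 0.912). Vim stood at 318, 154 and 165 CPM (-0.18 ± 0.32, adjusted p = 0.736) and S100b at 145, 209.7 and 208 CPM (-0.48 ± 0.18, adjusted p = 0.0838). AZD replicate 1 was the highest AZD library for Gfap and Vim and the lowest for S100b. The same library had the highest summed level of dividing-cell markers, whose range in AZD input was 257 to 801 CPM; their part in the Gfap and Vim levels was not tested. Against control input, Gfap (2.16 ± 0.38, adjusted p = 0.00194), Vim (2.49 ± 0.34, adjusted p = 0.000397) and S100b (0.92 ± 0.18, adjusted p = 0.00311) were higher in AZD input. Lcn2 stood at 2.28, 1.72 and 2.06 CPM in AZD input and had a log2 fold change over tumor of -1.76 ± 1.24, which did not pass; without tumor replicate 1 it was 2.88 (adjusted p = 0.0225). Htra1 stood at 216, 264 and 226 CPM in AZD input; its log2 fold change over tumor was 0.24 ± 0.37, not called, and 1.04 (adjusted p = 0.000433) without tumor replicate 1.

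Set against control input, AZD input had 8 of 33 genes higher and 8 lower (background 20.7% and 16%), with a median log2 fold change of -0.10. The calls of Aqp4 and Htra1 were lost on leaving out any of the 6 libraries, those of Clu and Slc39a12 on leaving out any of 4, and that of Gjb6 without control input replicate 1 (adjusted p = 0.051). This comparison uses the same AZD libraries as the last and the same control libraries as the first, so the values are given side by side. S1pr1 was at -0.75 ± 0.15 in tumor and -1.02 ± 0.15 in AZD input over control, and Pla2g7 at -0.71 ± 0.16 and -0.93 ± 0.17. The receptor and the phospholipase gene were lower than control in each condition. Mlc1 was at -0.74 ± 0.12 in tumor and -0.18 ± 0.12 in AZD input, Ndrg2 at -0.65 ± 0.12 and -0.10 ± 0.12, and Fgfr3 at -0.51 ± 0.13 and -0.085 ± 0.13. These 3 genes were called lower in tumor input and not called in AZD input over control, and were called higher between AZD and tumor input. The same held for Aldh1l1, which was called lower in AZD input than in control only in the edgeR fit of all 18 libraries (-0.37, adjusted p = 0.0489). All 3 AZD input libraries belong to their own library set, so the set and the treatment cannot be told apart in either comparison. Glioma-lineage markers summed to 2821 to 4052 CPM in AZD input, with 8 of 8 lower than in tumor input; their part in these changes was not tested.

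**Figure D3:**
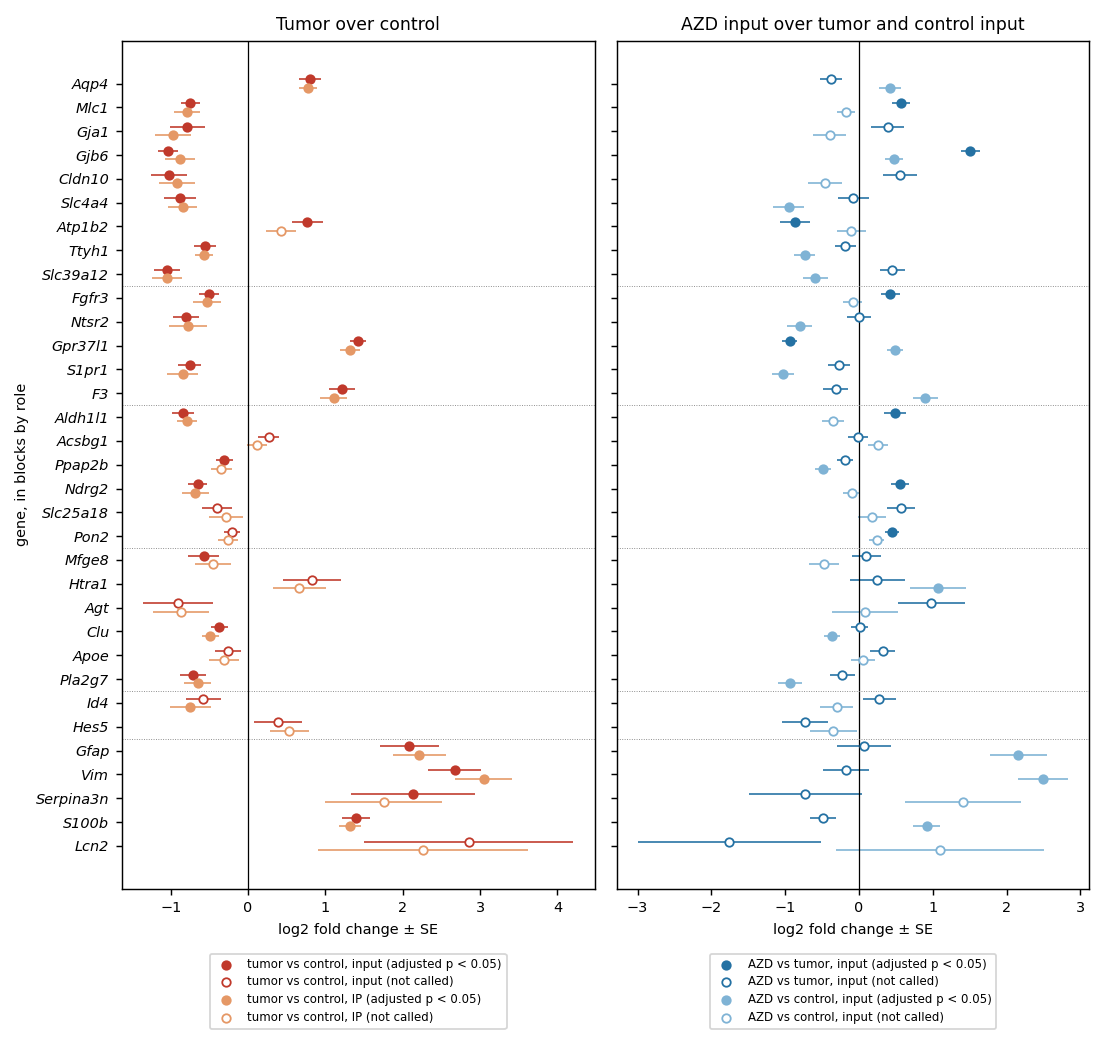
Log2 fold change ± SE of each gene for tumor over control in input and IP (left) and for AZD input over tumor input and over control input (right), in blocks by role; filled points passed an adjusted p of 0.05 and open points did not. On the left the points of input and IP lie close together; on the right Gjb6 lies to the right of 0 in both comparisons.

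The IP was set against input to ask how much astrocyte RNA the pull-down carried in each condition. In control mice the astrocyte genes took about the same share of the IP as of the tissue. Control IP against control input gave 2 of 33 genes higher and 5 lower, where 17.7% of all genes were called higher and 18.8% lower, and the median log2 fold change was -0.025. The count of 7 fell to 4 without control IP replicate 1 or control input replicate 2, and to 0 in a fit of all 18 libraries; the calls lost were those of Atp1b2, Pla2g7 and Ttyh1 on leaving out a library, and all 7 in the wider fit. Vim stood at 44.1, 32.0 and 38.8 CPM in control input against 24.4, 20.6 and 26.2 CPM in control IP (-0.70 ± 0.12, adjusted p = 0.000877). The receptor gene Ntsr2 (-0.64 ± 0.12), Atp1b2 (-0.31 ± 0.10), Pla2g7 (-0.29 ± 0.10) and Ttyh1 (-0.25 ± 0.079) were also lower, with adjusted p from 0.00128 to 0.0324. Gja1 (0.53 ± 0.14, adjusted p = 0.00965) and Id4 (0.49 ± 0.11, adjusted p = 0.00451) were higher in the IP. Gfap and Aqp4 did not pass: Gfap had a log2 fold change of -0.025 ± 0.10 and Aqp4 of -0.046 ± 0.083. Excitatory-neuron markers summed to 3626 to 4368 CPM in control IP against 2962 to 3207 CPM in input, with 4 of 8 higher. Inhibitory-neuron markers summed to 984 to 1129 CPM against 988 to 1168 CPM (2 of 8 lower). Oligodendrocyte markers summed to 2327 to 2863 CPM against 2958 to 3270 CPM (2 of 8 lower). Microglia markers gave 250 to 272 CPM against 267 to 298 CPM (2 of 8 lower). Endothelial markers gave 170 to 242 CPM against 316 to 343 CPM (7 of 8 lower). A share near that of the tissue was thus seen for inhibitory-neuron and microglia markers too. The 2 fractions of the control mice belong to different library sets, which cannot be told apart from the pull-down.

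In tumor mice the number of astrocyte genes called between the fractions depended on the fit. Of 32 genes tested (Lcn2 was too low), 0 were called in edgeR, where 5.09% of all genes were; 1 had an unadjusted p under 0.05 and DESeq2 called 1, Ntsr2 (adjusted p = 0.00488). Plain library totals also called Ntsr2 (adjusted p = 0.024), and a fit of all 18 libraries called Atp1b2 (adjusted p = 0.045). The 776 genes called over all genes fell to 120 without tumor IP replicate 2, to 120 without tumor IP replicate 3, to 160 without tumor input replicate 2, to 299 without tumor input replicate 3 and to 498 without tumor IP replicate 1. The median log2 fold change was -0.032. Same-numbered input and IP libraries deviated together (correlation of deviations 0.62 to 0.85), and with the replicate number as a block 2 genes were higher and 9 lower, while the count over all genes rose from 776 to 5433. The blocked calls were Gja1 (0.33) and Id4 (0.25) as higher, and Atp1b2 (-0.67), Ntsr2 (-0.64), Vim (-0.33), Serpina3n (-0.32), Ttyh1 (-0.28), Clu, Pla2g7, S1pr1 and Fgfr3 as lower. Excitatory-neuron markers summed to 1004 to 1878 CPM in tumor input and 1657 to 2148 CPM in tumor IP, with 0 of 8 called in edgeR without the block. Glioma-lineage markers summed to 5994 to 6762 CPM and 4795 to 5209 CPM (3 of 8 lower).

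With AZD8055 the astrocyte genes took a far smaller share of the IP than of its input. Of the 33 genes, 31 were lower in AZD IP and none higher, against 32.5% and 29% of all genes tested. The median log2 fold change was -2.20, a 4.59-fold drop, against -0.021 over all genes. Aqp4 stood at 227, 234 and 210.3 CPM in AZD input and 46.7, 44.2 and 49.3 CPM in AZD IP (log2 fold change -2.24 ± 0.092, adjusted p = 1.6e-05), a 4.71-fold drop with little spread between libraries. Gpr37l1 went from 172, 178 and 170.5 CPM to 28.5, 22.7 and 31.0 CPM (-2.64 ± 0.12, adjusted p = 1.6e-05). Apoe went from 532, 745 and 827 CPM to 83.0, 85.8 and 141 CPM (-2.74 ± 0.24, adjusted p = 6.55e-05). The water channel, the receptor and the lipid carrier each dropped in all 3 pairs of libraries. Gfap went from 634, 298 and 240.2 CPM to 109, 42.1 and 48.7 CPM (-2.55 ± 0.45, adjusted p = 0.00142), and in both fractions replicate 1 was the highest.

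The depletion was uneven across the genes. The steepest drops after Lcn2 (-3.40 ± 0.52, with 0 counts in AZD IP replicate 1) were those of Acsbg1 (-2.80 ± 0.18), Mlc1 (-2.75 ± 0.16), Apoe, Mfge8 (-2.64 ± 0.31) and Gpr37l1. At the other end, Ttyh1 (-0.62 ± 0.15, adjusted p = 0.00666), Aldh1l1 (-0.81 ± 0.12, adjusted p = 0.000489), Slc4a4 (-0.88 ± 0.11, adjusted p = 0.00031), Clu (-1.06 ± 0.10, adjusted p = 9.5e-05) and Atp1b2 (-1.29 ± 0.15, adjusted p = 0.000219) fell by less. Clu stood at 308, 340.4 and 366 CPM in AZD input and 147, 162 and 170.3 CPM in AZD IP, and its IP-over-input log2 ratios by replicate number were -1.07, -1.07 and -1.10. Aldh1l1 had ratios of -0.63, -1.10 and -0.76, while Aqp4 had -2.28, -2.40 and -2.09. Every Aldh1l1 and Clu ratio lay above every Aqp4 ratio, although all are listed as astrocyte genes.

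Only Serpina3n and Hes5 were not called. Serpina3n stood at 210.5, 123 and 67.7 CPM in AZD input and 197, 151 and 50.8 CPM in AZD IP, with a log2 fold change of 0.003 ± 0.50 (adjusted p = 0.996). The libraries spread widely, with replicate 1 highest and replicate 3 lowest in both fractions, and the IP-over-input log2 ratios were -0.10, 0.30 and -0.41. In control mice these ratios were -0.057, 0.12 and -0.039, and in tumor mice -0.54, -0.23 and -0.16, again with the same order of replicates in both fractions. Hes5, a low gene, stood at 4.01, 7.40 and 8.40 CPM in AZD input and 3.52, 5.42 and 6.21 CPM in AZD IP (-0.33 ± 0.31, adjusted p = 0.378).

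**Figure D4:**
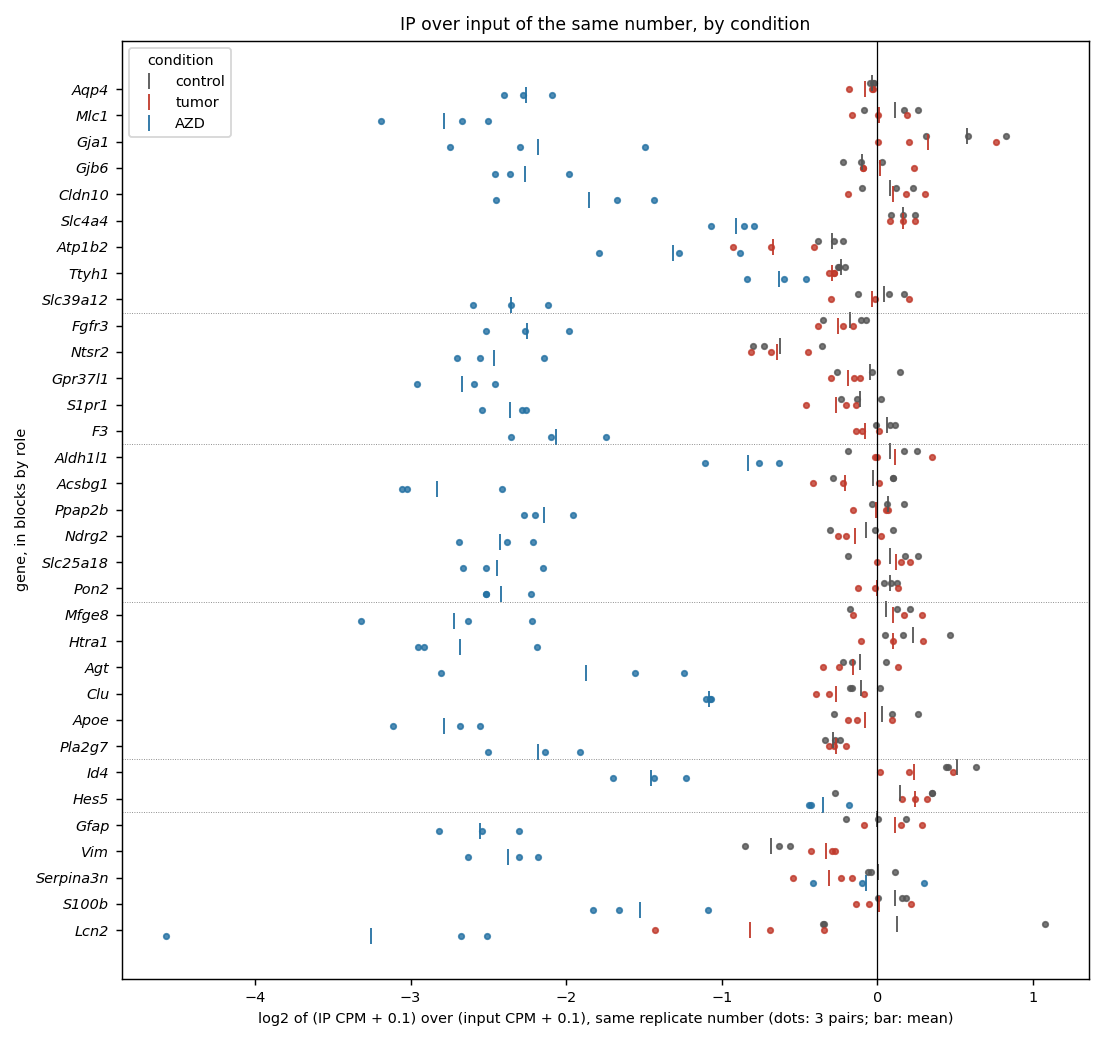
Log2 ratio of IP CPM + 0.1 to input CPM + 0.1 for the same replicate number, for each gene (rows, in blocks by role); dots are the 3 pairs of a condition and bars their mean. Control and tumor dots lie around 0, AZD dots lie mostly well to the left of them, and those of Ttyh1, Aldh1l1, Slc4a4, Clu, Hes5 and Serpina3n lie nearer to 0.

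Markers of other cell types moved in AZD IP as well. Relative to AZD input, 8 of 8 glioma-lineage, 8 of 8 oligodendrocyte, 8 of 8 endothelial, 8 of 8 inhibitory-neuron and 7 of 8 microglia markers were lower, and 8 of 8 excitatory-neuron markers were higher. Glioma-lineage markers summed to 501 to 691 CPM in AZD IP, oligodendrocyte markers to 382 to 591 CPM, microglia markers to 31.4 to 49.8 CPM and excitatory-neuron markers to 3884 to 4715 CPM. The corresponding sums in AZD input were 2821 to 4052, 1502 to 2154, 245 to 259 and 1402 to 1921 CPM. No list had a marker at 0 in all AZD IP libraries. Their part in the astrocyte result was not tested.

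The contrast of IP minus input between AZD and tumor tested this difference in all 18 libraries. It was lower with AZD for 28 of 33 genes and higher for none, against 20.8% and 12.3% of all genes, and the median was -2.12 on the log2 scale. Mlc1 (-2.80 ± 0.23, adjusted p = 3.97e-07), Mfge8 (-2.79 ± 0.35, adjusted p = 2.72e-05) and Apoe (-2.70 ± 0.28, adjusted p = 3.86e-06) had the lowest contrasts. Gjb6, which was higher in AZD input than in tumor input, had a contrast of -2.24 ± 0.25 (adjusted p = 7.95e-06). Atp1b2 (-0.64 ± 0.30), Ttyh1 (-0.35 ± 0.18), Hes5 (-0.59 ± 0.44), Serpina3n (0.43 ± 1.19) and Lcn2 (-2.64 ± 2.38) did not pass; without tumor input replicate 1, Lcn2 did (-7.28, adjusted p = 0.0141). With the replicate number as a block, 32 of the 33 genes were lower. The call of Agt (contrast -1.79 ± 0.65, adjusted p = 0.0447) was lost when any of 9 of its 12 libraries was left out. The tumor IP and AZD IP libraries belong to different sets, and so do the inputs, so the treatment and the sets cannot be told apart in this contrast; the comparison of the 2 AZD fractions stays inside a set.

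Directly between IP fractions, AZD IP had 31 of 33 genes lower than tumor IP and none higher (background 33.5% and 25.1%), with a median log2 fold change of -2.07 against -0.094 over all genes. Gpr37l1 fell from 307, 298 and 286 CPM to 28.5, 22.7 and 31.0 CPM (-3.47 ± 0.14, adjusted p = 9.16e-08), with no overlap. Lcn2 was called (-4.47 ± 1.67, adjusted p = 0.0394) although its libraries overlapped, and without tumor IP replicate 1 its log2 fold change was 1.19 (adjusted p = 0.365); its call was also lost without any of the 3 AZD IP libraries. Agt (-0.87 ± 0.39) and Serpina3n (-0.35 ± 0.73) did not pass.

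Against control IP, AZD IP had 29 of 33 genes lower and none higher (background 17.4% and 16%), with a median of -2.15. The 4 genes that did not pass were all reactivity genes: Gfap (-0.42 ± 0.33), Vim (0.83 ± 0.35), Serpina3n (1.41 ± 0.75) and Lcn2 (-2.21 ± 1.77). Gfap stood at 85.5, 91.5 and 87.2 CPM in control IP and 109, 42.1 and 48.7 CPM in AZD IP, and Vim at 24.4, 20.6 and 26.2 CPM and 70.1, 24.9 and 33.3 CPM. The 2 filament genes, which were higher in AZD input than in control input, overlapped with control in the IP. Without AZD IP replicate 1 Gfap was called lower (-0.95, adjusted p = 0.0139), and without AZD IP replicate 2 Vim was called higher (1.11, adjusted p = 0.0351). By contrast, S1pr1 (-3.29 ± 0.23, adjusted p = 1.12e-05), Gja1 (-3.08 ± 0.25, adjusted p = 2e-05) and Mlc1 (-3.08 ± 0.18, adjusted p = 9.31e-06) were far below control in every AZD IP library. The call of Hes5 (-0.84 ± 0.26, adjusted p = 0.0284) was lost without AZD IP replicate 1 or 2 or control IP replicate 2 or 3.

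A further 40 astrocyte genes outside the 33 gave the background of the cell type; 39 are in the table. In tumor input against control input 7 were higher and 16 lower, against 24.5% and 23.6% of all genes, with a median log2 fold change of -0.28. Ednrb, the endothelin B receptor gene, stood at 75.2, 72.0 and 69.7 CPM in control and 1084, 851 and 1007 CPM in tumor input (3.75 ± 0.13, adjusted p = 1.82e-07). Fabp7, the brain fatty-acid-binding protein of radial glia and astrocytes, stood at 18.5, 15.5 and 14.9 CPM and 285, 288 and 238 CPM (4.04 ± 0.22, adjusted p = 1.02e-06). The transcription factor gene Nfia (1.08 ± 0.14) and the adhesion gene Hepacam (1.08 ± 0.18) were also higher. Ednrb, Fabp7 and Nfia are also expressed in oligodendrocyte precursors or glioma cells, and the part of those cells in the rises was not tested. In AZD input against tumor input 3 genes were higher and 5 lower of 39, where 7.89% and 9.17% of all genes were, a share near that background; among them were Ednrb (-1.39 ± 0.12), Lfng (0.99 ± 0.14), a modifier of Notch, and Dio2 (0.72 ± 0.12), the enzyme that activates thyroid hormone. In AZD IP against AZD input 35 of 39 were lower and 1 higher, against 32.5% and 29% of all genes, with a median of -2.07; the higher gene, Rorb (0.82 ± 0.13), which is also expressed in cortical neurons, was named after its value was seen. Slc1a3, the glutamate transporter GLAST, went from 537, 583 and 607 CPM to 88.1, 76.8 and 112 CPM (-2.62 ± 0.15, adjusted p = 1.99e-05), while the metabotropic glutamate receptor gene Grm3 (0.16 ± 0.11, adjusted p = 0.222) did not pass.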

How the data were processed

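Raw counts of reads per gene symbol, not normalized, were deposited by the authors as 1 table of 23420 symbols and 18 libraries. Per the labels' protocols RNA was cleaned with the RNeasy Mini kit and a NEBNext Ultra Directional kit built the libraries; STAR, DESeq2 and mm10 appear in the submitters' processing notes. Not given in the sources used here are the counting tool, the annotation, the use of strand and all versions. Counts were scaled by TMM, filtered by filterByExpr and tested with edgeR 4.0.16 (R 4.3.3; quasi-likelihood F test, no replicate block, Benjamini-Hochberg at 0.05 over all genes). IP and input were compared in a fit of 6 libraries per condition, conditions in a fit of the 9 libraries of a fraction, and IP minus input in a fit of all 18, for 11 comparisons. Errors beside log2 folds are standard errors. All 33 members could be named; other lists gave at most 4 named genes by lowest adjusted p and at most 2 not passing in a comparison. Members and lists were chosen with earlier results of these data known. Whether numbers pair input and IP was checked by correlating deviations from group means over 16016 genes: control pairs gave 0.27 to 0.32, tumor pairs 0.62 to 0.85, AZD pairs 0.27 to 0.56, and each number matched its own best in 3 of 3, so the numbers pair them. Simulated data with known changes were used to test the scripts. Alternatives were RLE scaling, plain totals, a 5 CPM filter, no filter, DESeq2 1.42.0, the block, all libraries in 1 fit and leaving out each library. Promoters came from RefSeq tables (GRCm38.p6). Figures used matplotlib 3.10.9.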

Additional observations from a re-analysis of the deposited data

Results flagged for a closer look

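The contrast of IP minus input differed between AZD and tumor mice for 28 of the 33 genes, and all 28 contrasts were negative. Among channels and junctions the log2 contrasts were -2.80 for Mlc1, -2.44 for Gja1, -2.37 for Slc39a12, -2.24 for Gjb6, -2.17 for Aqp4, -2.03 for Cldn10 and -1.06 for Slc4a4. Among receptors they were -2.47 for Gpr37l1, -2.12 for S1pr1, -1.99 for Fgfr3, -1.97 for F3 and -1.75 for Ntsr2. Enzymes and metabolism genes gave -2.61 for Acsbg1, -2.58 for Slc25a18, -2.40 for Pon2, -2.27 for Ndrg2, -2.12 for Ppap2b and -0.93 for Aldh1l1. Secreted proteins gave -2.79 for Mfge8, -2.70 for Apoe, -2.67 for Htra1, -1.90 for Pla2g7, -1.79 for Agt and -0.82 for Clu. The regulator Id4 had -1.75, and the reactivity genes Gfap, Vim and S100b had -2.65, -1.98 and -1.55. The treated libraries form a set of their own, so treatment and library set cannot be told apart in these 28 values.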

How the results depend on the processing

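Of 195 calls of a gene in a comparison, 194 kept their direction and call with RLE size factors (1 was lost), 189 with plain library totals (6 lost) and 193 without a filter (2 lost). All 192 that could be refitted with a mean of at least 5 CPM were kept, as were 192 of 194 with DESeq2 (2 lost), 194 with the replicate number as a block (1 lost) and 154 of 167 with all 18 libraries in 1 fit (13 lost). In control IP against input the count of called genes was 7 and became 0 with all 18 libraries in 1 fit. In tumor IP against input it was 0 and became 1 with plain totals, 1 with DESeq2, 1 with all 18 libraries in 1 fit and 11 with the replicate block. Over all genes the tumor IP against input calls numbered 776, 1728 with DESeq2, 2225 with all 18 libraries and 5433 with the block. The block moved no other count of called members by more than 1.5 times. Control IP against input went from 5461 calls over all genes to 3671 with all 18 libraries in 1 fit, the contrast of IP minus input between AZD and tumor from 5296 to 8025 with the block, and that between tumor and control from 11 to 16 with RLE, 17 with totals, 40 with DESeq2 and 67 with the block. Leaving out a replicate gave 4 to 8 called genes in control IP against input (4 without control IP replicate 1 or control input replicate 2), 0 in tumor IP against input, 31 in AZD IP against input, 19 to 27 for tumor against control input, 3 to 11 for AZD against tumor input (main count 8; 4 without AZD input replicate 2 and 3 without replicate 3), 11 to 14 for AZD against control input, 18 to 25 for tumor against control IP, 30 to 31 for AZD against tumor IP, 28 to 29 for AZD against control IP, 0 for the contrast between tumor and control and 27 to 30 for that between AZD and tumor. Of 1338 such refits of a call, 1244 kept it, 93 lost it and 1 reversed: Lcn2 in AZD against tumor IP, which ran from -5.06 without tumor IP replicate 3 to 1.19 without tumor IP replicate 1. Where Lcn2 was not called it also changed sign in tumor against control IP without that library (-3.40, adjusted p = 0.0117) and in AZD against tumor input without tumor input replicate 1 (2.88). With plain totals the median over all genes went from -0.021 to -0.30 in AZD IP against input, and that of the 33 genes from -2.20 to -2.47. The causes of these changes were not tested. Between conditions, same-number correlations of deviations ran from -0.11 to 0.35, and every number matched its own best in control against tumor IP but not in the other 5 pairs of groups, so across conditions the numbers were not taken as pairs. With 3 libraries a group, small changes of the low genes Lcn2, Agt and Hes5 may have been missed. Whether depth limited the results for these genes was not tested.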

Other observations

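Lists of genes known from mouse models of reactive astrocytes were read beside the 5 reactivity genes. Of 9 pan-reactive genes, 5 were higher and none lower in tumor input than in control input, with a median log2 fold change of 2.37; 24.5% of all genes were called higher. Cp, the copper-carrying ferroxidase ceruloplasmin, stood at 32.4, 28.2 and 41.2 CPM in control input against 121, 59.2 and 78.1 CPM in tumor input (1.34 ± 0.24, adjusted p = 0.00154). Osmr, the oncostatin M receptor gene, stood at 5.93, 4.50 and 4.61 CPM and 54.7, 12.2 and 10.8 CPM (2.37 ± 0.56, adjusted p = 0.00608), and Cd44, a receptor for hyaluronan, at 7.66, 7.05 and 6.39 CPM and 80.0, 25.7 and 7.85 CPM (2.43 ± 0.73, adjusted p = 0.0186). In each of these 3 genes tumor replicate 1 was the highest input library. For all 9 pan-reactive genes tumor replicate 1 was the highest of the 3 tumor input libraries and of the 3 tumor IP libraries. Between AZD input and tumor input none of the 9 passed in edgeR, and 2, Cxcl10 and S1pr3, had an unadjusted p under 0.05.

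Among genes linked to the injury-induced A2 state, 7 of 10 tested were higher in tumor input and none lower, against 24.5% and 23.6% of all genes. Tumor replicate 1 was the highest tumor input library for 11 of 12 A2 genes and for 8 of 11 genes of the A1 list below, and the highest tumor IP library for 10 of 12 and 9 of 11. B3gnt5, a glycosyltransferase gene, measured 3.13, 1.94 and 2.52 CPM in control input, 55.3, 25.4 and 25.0 CPM in tumor input and 21.2, 9.25 and 7.90 CPM in AZD input. It was higher in tumor than in control (3.80 ± 0.47, adjusted p = 0.000141) and lower in AZD than in tumor input (-1.43 ± 0.40, adjusted p = 0.0346). Among genes linked to the inflammation-induced A1 state, 3 of 11 were higher and 2 lower in tumor input, and 7 higher and 1 lower in AZD input, each against control input. The tumor shares are near the background of all genes just given, and the AZD input background was 20.7% higher and 16% lower. Fkbp5, a glucocorticoid-induced chaperone gene, measured 25.8, 26.2 and 25.7 CPM in control input, 106, 30.6 and 35.9 CPM in tumor input and 106, 111 and 92.6 CPM in AZD input. All 3 AZD input libraries were high, whereas only replicate 1 of the tumor input libraries was. In AZD IP it stood at 100.4, 109 and 93.4 CPM, and the log2 fold change of AZD IP over AZD input was -0.011 ± 0.10 (adjusted p = 0.935). The major histocompatibility gene H2-D1 was higher in AZD input than in control input (1.59 ± 0.34, adjusted p = 0.00505). Microglia and endothelial cells also express several of these genes, and their part was not tested.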
